A study of Rattus norvegicus with 59 samples.

Results

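The nuclear genes for the subunits of oxidative phosphorylation were followed in rat liver after a single exposure to cadmium (Cd) or hexavalent chromium (Cr). Members were the probe sets of an Affymetrix whole-genome rat array with exactly 1 annotated gene symbol that began with Ndufa, Ndufb, Ndufc, Ndufs or Ndufv (complex I), Sdha to Sdhd (complex II), Uqcr (complex III), Cox4 to Cox8 (complex IV) or Atp5 (complex V), leaving out Ndufaf. The rule took 94 of the 31042 probe sets other than array controls, and they stood for 84 of the 14217 genes that such probe sets name. By the stem of the symbol, complex I held 36 genes, complex II 4, complex III 7, complex IV 17 and complex V 16. The Sdha to Sdhd stems also took in the 4 complex II assembly factors Sdhaf1 to Sdhaf4. A stem need not name the complex in which the product works, and Ndufa4 and Ndufa4l2 were counted in complex I by theirs alone. Cox6c-ps1 is a pseudogene, and Cox7a2l and Atp5if1 are not subunits of the enzymes whose names they carry: Cox7a2l helps to join complex III and complex IV, and Atp5if1 inhibits complex V when it runs in reverse.

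The animals were male Sprague-Dawley rats, and each array carried RNA from the whole liver of 1 rat. Exposed rats received 1 intraperitoneal injection of CdCl2 at 1.25 mg/kg, the medium dose, or of Na2Cr2O7, and were killed 1, 3 or 7 days later. The labels give 20 mg/kg, the high dose, for the Cr arrays, while the study's methods name a lower dose in one sentence and the high dose in another, so the Cr dose is not settled here. Control rats received sterile saline alone and were killed on the same days, in a separate set for each metal. There were 4 Cd-exposed livers on day 1 and 5 in each of the other 11 groups, 59 arrays in all; the study left out a Cd-exposed day 1 rat because its array clustered with the controls and its liver held no accumulated Cd. Livers are numbered as in the labels, which hold no Cd-exposed day 1 liver 3.

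Oxidative phosphorylation moves electrons from NADH through complex I, or from succinate through complex II, to ubiquinone, then through complex III and cytochrome c to complex IV, where oxygen is reduced. Complexes I, III and IV pump protons across the inner mitochondrial membrane, and complex V lets them flow back and makes ATP. Most subunits are encoded in the nucleus and imported; a few core subunits of complexes I, III, IV and V come from mitochondrial DNA and are not among the members. Hepatocytes are rich in mitochondria, and both metals are known to disturb the respiratory chain.

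Deposited values were log2 signals after robust multi-array averaging (RMA), in which 1 unit is a doubling. Arrays of the same metal correlated at 0.9784 or more for Cd and 0.9733 or more for Cr over all probe sets. Some markers of other cell types were called on day 1 after both metals. All 6 measured Kupffer cell markers were lower in Cd-exposed livers, and their mean log2 signal was 5.15, 5.32, 5.07 and 7.66 in exposed livers 1, 2, 4 and 5, against 8.60 to 9.15 in the controls. The mean of 3 neutrophil markers was 7.03 to 8.11 in Cd-exposed livers and 4.44 to 5.37 in controls on day 1. Of these 3 markers, 1 reached a mean log2 signal of 6 over all arrays. Among the 3 were S100a8 and S100a9, whose proteins the study says other cell types can come to make. The mean of 7 hepatocyte markers was 13.79 to 13.86 in Cd-exposed livers and 13.81 to 13.92 in controls, and no skeletal or heart muscle marker was bright enough to test. After Cr, 1 of 6 Kupffer markers, 1 of 4 tested stellate and fibroblast markers and the single tested neutrophil and cholangiocyte markers were higher (log2 fold change 1.34 for the neutrophil and 1.14 for the cholangiocyte marker), and 0 of 4 endothelial markers were called. Of all tested probe sets, 30.5% were higher and 19.5% lower after Cr. Neither the Kupffer nor the stellate and fibroblast share of higher calls exceeded that. The neutrophil mean was 4.83 to 6.07 in Cr-exposed livers and 4.15 to 4.87 in controls, and the Kupffer mean was 8.87 to 9.30 in Cr-exposed livers and 8.69 to 8.93 in controls. The part of these shifts in the Cd and Cr results was not tested. In bulk tissue, fewer cells of a type and less RNA per cell cannot be told apart.

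In liver the members were among the brightest probe sets on the array. Of the 84 genes, 76 reached a mean log2 signal of 6, the minimum used for testing, and 69 of these lay in the top 10% of all probe sets. The median level was 11.42, between 6.62 for Cox5a and 13.01 for Atp5pb. By complex the medians were 10.98 for I, 11.76 for II, 11.54 for III, 11.58 for IV and 11.94 for V, against 8.58 for the complex II assembly factors; probe sets bind with different strength, so these orders are not orders of transcript number. The 8 dim genes lay between 2.70 and 5.71 in every liver of every group and were not tested. They were Cox4i2, Cox6a2, Cox6b2, Cox7a1, Cox7b2, Cox8b and Ndufa4l2, which are forms best known from lung, heart, muscle, testis or hypoxic cells, and the pseudogene Cox6c-ps1. The members also varied little between rats of a group: the median standard deviation (SD) was 0.0932 for members in the Cd set and 0.0789 in the Cr set, against 0.121 and 0.126 for all probe sets whose mean was at least 10.

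On day 1 after Cd, member transcripts that passed the test were nearly all lower than in same-day controls. Of 80 tested probe sets, 1 was higher and 20 were lower (limma, adjusted p of 0.05 or less over 12977 probe sets), which is 19 genes lower and 1 higher of 76. Of all tested probe sets, 26.6% were called, 14.5% higher and 12% lower, so the share of members called was near the background while its direction was not evenly divided. Among the 1781 tested probe sets whose mean log2 signal was at least 10, where most members lie, 44.1% were called, 20% higher and 24% lower. The median log2 fold change of the member probe sets was -0.09, against 0.01 for all tested. No member reached the 1.8-fold change that the study's methods ask for, which 4.06% of tested probe sets did with the adjusted p.

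The fall was uneven among the exposed livers. Over the 72 tested genes other than the Sdhaf factors, the mean log2 signal was 11.09, 11.22, 11.23 and 11.26 in exposed livers 1, 2, 4 and 5, against 11.31, 11.29, 11.31, 11.31 and 11.30 in control livers 1 to 5. Every exposed liver lay under every control, and the 5 controls were within 0.02 of each other. Liver 1 had the lowest exposed value for 16 of the 19 genes called lower, and liver 5, the liver that kept more Kupffer marker signal, had the highest for 14. Without liver 1 the count of probe sets called lower was 10, and without liver 5 it was 24. The 10 genes whose calls were lost without liver 1 were Ndufa6, Ndufa8, Ndufab1, Ndufc2, Sdha, Uqcrfs1, Cox8a, Atp5f1d, Atp5pb and Atp5po, with adjusted p-values of 0.062 to 0.202. The other 9 lower genes and Sdhaf1 kept their calls whichever liver was left out.

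**Figure D1:**
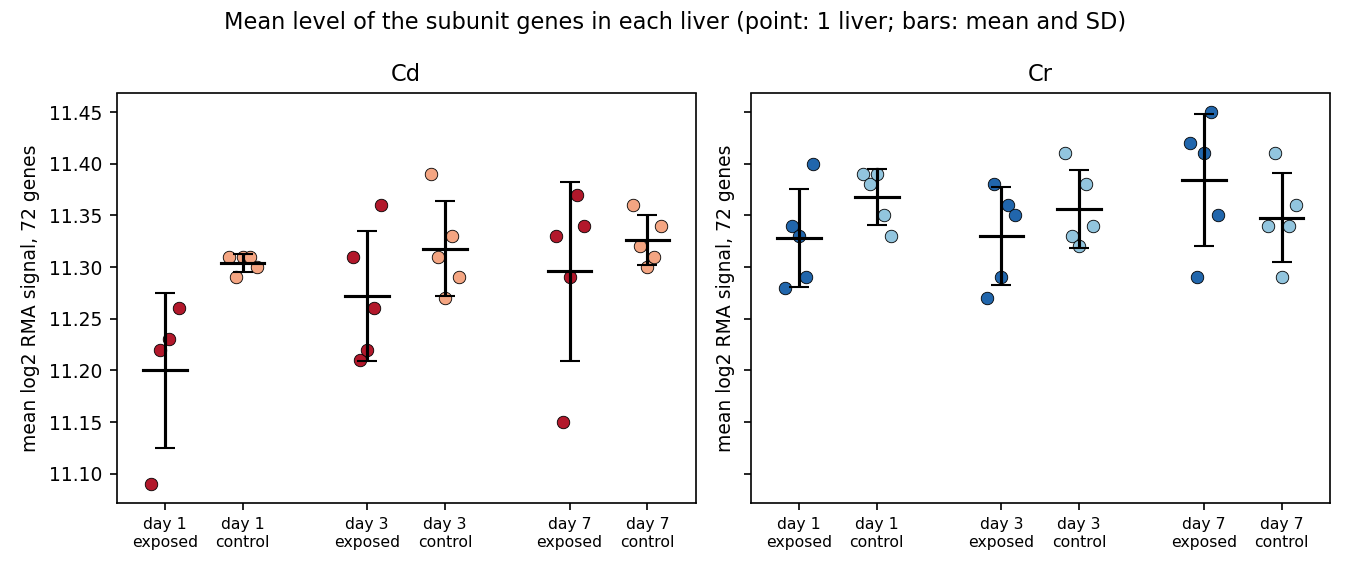
Mean log2 RMA signal over 72 member genes in each liver, by metal, day and exposure, with exposed livers left of their same-day controls; points are livers, bars are group means and error bars are SD. On day 1 the 4 Cd-exposed livers lie between 11.09 and 11.26, under all 5 controls (11.29 to 11.31), while the other exposed groups overlap with theirs.

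Complex II, succinate dehydrogenase, links the tricarboxylic acid (TCA) cycle to the respiratory chain, and it is the only complex here made wholly of nuclear-encoded subunits. Of its 4 genes, 3 fell after Cd. Sdhd encodes one of the pair of membrane anchors that bind ubiquinone, and had log2 signals of 11.00, 11.27, 11.21 and 11.46 in Cd-exposed livers 1, 2, 4 and 5, against 11.79, 11.74, 11.63, 11.68 and 11.72 in controls 1 to 5. The groups did not overlap, and the effect of -0.48 on the log2 scale (SE 0.07, adjusted p = 1.38e-05) was the largest fall of any member after Cd. The second Sdhd probe set gave -0.46 (SE 0.08, adjusted p = 0.000142). Sdhc, the other anchor, had 11.48, 11.59, 11.56 and 11.66 in Cd-exposed livers and 12.12, 11.82, 11.79, 11.68 and 11.82 in controls, and its effect was -0.27 (SE 0.07, adjusted p = 0.005). All exposed livers were again under the lowest control. Sdha, the flavoprotein that oxidises succinate, was at 11.03 ± 0.10 in Cd-exposed livers (SD, n = 4) and 11.23 ± 0.08 in controls (n = 5), and its call was lost without exposed liver 1 (adjusted p = 0.094) or control liver 4 (0.0541). Sdhb, the iron-sulfur subunit, gave -0.20 (SE 0.08) and did not pass (adjusted p = 0.0689).

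Sdhaf1 went the other way. This assembly factor helps to place iron-sulfur clusters in Sdhb, and its log2 signal was 9.11, 8.93, 9.41 and 9.54 in Cd-exposed livers, against 8.51, 8.37, 8.43, 8.61 and 8.24 in controls. It rose by 75.8% (log2 fold change 0.81, SE 0.10, adjusted p = 1.31e-06), with no overlap, and was the only member called higher after Cd. The other assembly factors of complex II, Sdhaf2, Sdhaf3 and Sdhaf4, did not pass in either metal.

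**Figure D2:**
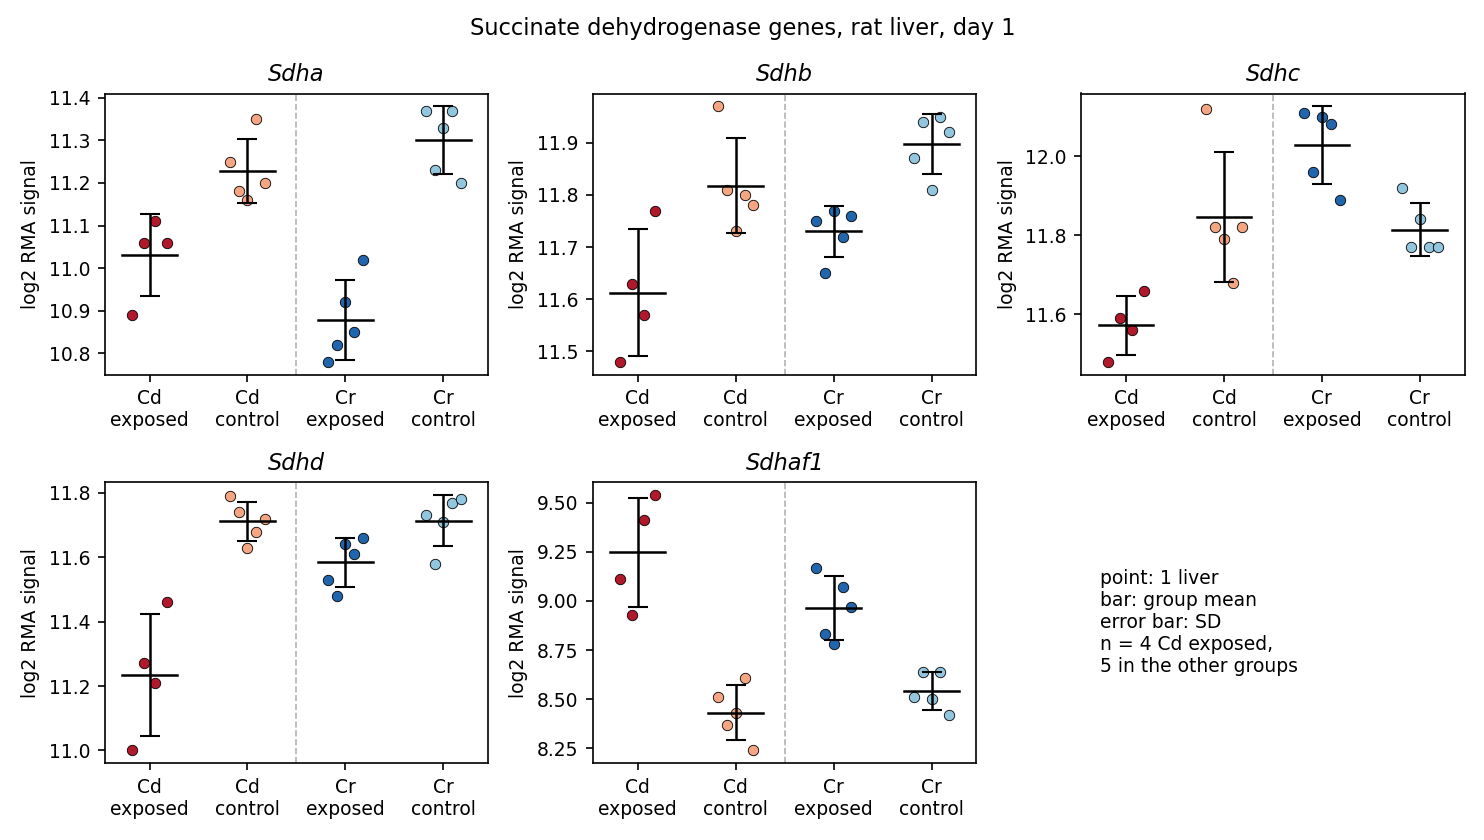
Log2 RMA signal of Sdha, Sdhb, Sdhc, Sdhd and Sdhaf1 on day 1 in Cd-exposed, Cd control, Cr-exposed and Cr control livers; points are livers, bars are means and error bars are SD. Sdhd is low in Cd-exposed livers (mean 11.24, against 11.71 in controls), Sdhc lies under its controls after Cd and mostly above them after Cr, Sdha lies under all its controls after Cr (10.78 to 11.02 in exposed livers, against 11.20 to 11.37), and Sdhaf1 is high after both metals.

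The start regions of Sdha, Sdhc, Sdhd and Sdhaf1 are printed because their transcripts moved differently although their products serve the same enzyme. Each is 250 bases before to 50 after the RefSeq start in the build GRCr8, read 5′ to 3′ on the gene's strand: Sdha at chr1:30764303-30764602 (plus strand), Sdhc at chr13:86097976-86098275 (minus strand), Sdhd at chr8:59850592-59850891 (minus strand) and Sdhaf1 at chr1:94704562-94704861 (minus strand). Capitals mark matches, on either strand, to the letters of 4 motifs that do not overlap one another in these regions: GCGCANGCG (nuclear respiratory factor 1, NRF1), AANATGGCG (YY1), CCGGAAG (the ETS family, to which GA-binding protein belongs) and CAAGGTCA (estrogen-related receptors, ERR).
Sdha: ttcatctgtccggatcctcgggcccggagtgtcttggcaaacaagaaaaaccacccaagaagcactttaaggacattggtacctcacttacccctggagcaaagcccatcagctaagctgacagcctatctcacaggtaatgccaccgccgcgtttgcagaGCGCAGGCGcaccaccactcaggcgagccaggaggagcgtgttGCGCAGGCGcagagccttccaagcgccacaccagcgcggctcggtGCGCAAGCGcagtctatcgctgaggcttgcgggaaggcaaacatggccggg
Sdhc: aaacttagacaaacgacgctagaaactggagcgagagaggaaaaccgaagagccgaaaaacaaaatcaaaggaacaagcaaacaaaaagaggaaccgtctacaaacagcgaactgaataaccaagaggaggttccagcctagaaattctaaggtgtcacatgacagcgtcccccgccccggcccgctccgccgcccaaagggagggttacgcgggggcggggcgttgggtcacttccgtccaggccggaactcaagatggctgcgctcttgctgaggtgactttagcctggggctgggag
Sdhd: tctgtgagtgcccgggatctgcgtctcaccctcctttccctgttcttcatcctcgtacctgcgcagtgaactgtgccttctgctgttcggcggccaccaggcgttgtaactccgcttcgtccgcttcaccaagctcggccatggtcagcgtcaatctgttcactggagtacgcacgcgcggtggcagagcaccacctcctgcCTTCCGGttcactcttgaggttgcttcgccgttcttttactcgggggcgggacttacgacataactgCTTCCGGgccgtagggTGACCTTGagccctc
Sdhaf1: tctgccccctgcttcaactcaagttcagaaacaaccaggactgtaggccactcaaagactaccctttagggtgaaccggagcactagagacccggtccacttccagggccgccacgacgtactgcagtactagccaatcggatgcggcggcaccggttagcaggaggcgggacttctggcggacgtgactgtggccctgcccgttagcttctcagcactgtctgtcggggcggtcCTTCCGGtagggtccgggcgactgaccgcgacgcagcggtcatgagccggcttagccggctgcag
Sdha held 3 matches to the NRF1 letters, Sdhd 2 to the ETS letters and 1 to the ERR letters, Sdhaf1 1 to the ETS letters, and Sdhc none of them.

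In complex I, which takes electrons from NADH, 9 of 35 tested genes fell after Cd and none rose. Ndufs3, a core subunit of the arm that reaches into the matrix, had 9.89, 10.09, 10.07 and 10.16 in Cd-exposed livers, against 10.60, 10.49, 10.47, 10.46 and 10.43 in controls. The groups did not overlap, and the effect was -0.44 (SE 0.08, adjusted p = 0.000107). Ndufs7, which carries the iron-sulfur cluster that passes electrons to ubiquinone, had 10.16, 10.23, 10.24 and 10.43 in Cd-exposed livers, against 10.78, 10.58, 10.59, 10.47 and 10.72 in controls (log2 fold change -0.36, adjusted p = 0.00176). Ndufc1, an accessory subunit of the membrane arm, had 11.37, 11.62, 11.15 and 11.43 in Cd-exposed livers and 11.78, 11.89, 11.79, 11.71 and 11.68 in controls (log2 fold change -0.38, adjusted p = 0.000748). Both genes separated the groups fully. Core subunits at and next to the NADH site did not pass: Ndufv1 averaged 10.28 in Cd-exposed livers and 10.38 in controls, and Ndufs1 differed by -0.07.

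Complexes III and IV held few calls after Cd. Of 7 tested complex III genes, only Uqcrfs1, the Rieske iron-sulfur protein, was called, at 11.67 ± 0.13 in Cd-exposed livers (SD, n = 4) and 11.84 ± 0.06 in controls (n = 5), with an adjusted p of 0.0496 that rose to 0.0525 to 0.202 when each of 6 livers was left out. The core proteins Uqcrc1 and Uqcrc2 gave -0.07 and -0.16 (adjusted p = 0.477 and 0.14). Of 10 tested complex IV genes, only Cox8a was lower, at 12.10 ± 0.13 in Cd-exposed livers and 12.30 ± 0.03 in controls; its call was lost without exposed liver 1 (adjusted p = 0.0622) or 2 (0.066). Cox4i1, the subunit through which ATP slows the enzyme, differed by -0.02 (SE 0.05), and Cox6c by -0.01.

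In complex V, 5 of 16 genes fell after Cd. Atp5f1c, the gamma subunit that turns inside the catalytic head, had 11.81, 12.11, 11.94 and 12.06 in Cd-exposed livers, against 12.26, 12.35, 12.35, 12.31 and 12.29 in controls, with no overlap (log2 fold change -0.33, SE 0.06, adjusted p = 0.00011). Atp5me, a small subunit of the membrane part, had 10.63, 10.59, 10.70 and 10.78 in Cd-exposed livers, against 10.91, 10.96, 10.95, 10.88 and 10.96 in controls (log2 fold change -0.26, adjusted p = 0.0103). The catalytic head itself did not pass: Atp5f1a and Atp5f1b, its alpha and beta subunits, each gave -0.15 (adjusted p = 0.0973 and 0.248). Atp5if1 differed by 0.03.

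On day 1 after Cr, members moved in both directions. Of 79 tested probe sets, 9 were higher and 20 lower, each standing for its own gene (limma, adjusted p of 0.05 or less over 13103 probe sets). Of all tested probe sets, 49.9% were called, 30.5% higher and 19.5% lower, and 36.7% of the member probe sets were called, with more of these lower than higher. The order of these shares turned with each array centred on its median (53.2% of members and 49.8% of all tested) and with no filter on dim probe sets (27.7% and 26%). Among the 1827 whose mean was at least 10, 62.9% were called, 29.8% higher and 33.1% lower. The median was -0.04 for the members and 0.05 for all tested. With the centring, 6 members were higher and 36 lower, beside 2998 probe sets higher and 3521 lower of all tested, where the values as deposited gave 3993 and 2549. Without exposed liver 2, 14 members were higher. No member reached 1.8-fold with the adjusted p, as 5.25% of all tested did.

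The Cr-exposed livers also differed among themselves. Liver 5 had the highest exposed value for 17 of the 20 genes called lower, and liver 4 the lowest for 10. Over the 72 genes the mean log2 signal was 11.28, 11.34, 11.33, 11.29 and 11.40 in exposed livers 1 to 5 and 11.39, 11.38, 11.39, 11.35 and 11.33 in controls, so the groups overlapped. The 3′ minus 5′ difference of the array's Gapdh probe sets, a sign of RNA integrity, had a median of 0.20 in Cr-exposed livers (0.14 to 0.82) and 0.47 in controls (0.39 to 0.85); its part in the Cr results was not tested. The calls lost when some liver was left out were those of Ndufc1, Ndufs1, Ndufs8, Cox7a2l, Atp5f1e and Atp5me, with adjusted p-values of 0.0503 to 0.18.

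After Cr, complex II divided. Sdha had 10.78, 10.82, 10.92, 10.85 and 11.02 in Cr-exposed livers, against 11.37, 11.23, 11.33, 11.37 and 11.20 in controls, with no overlap. Its effect was -0.42 (SE 0.06, adjusted p = 1.05e-06), the largest fall of any member after Cr. Sdhb fell by 0.17 (SE 0.05, adjusted p = 0.00659). Sdhc rose: it had 12.11, 11.96, 12.10, 12.08 and 11.89 in Cr-exposed livers and 11.92, 11.77, 11.84, 11.77 and 11.77 in controls (log2 fold change 0.22, adjusted p = 0.00212). Only liver 5 lay within the control range. Sdhd gave -0.13 and did not pass (adjusted p = 0.0582). Sdhaf1 had 9.17, 8.83, 8.78, 9.07 and 8.97 in Cr-exposed livers and 8.51, 8.64, 8.50, 8.64 and 8.42 in controls (log2 fold change 0.42, SE 0.07, adjusted p = 2.63e-05).

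In complex I, 12 of 35 genes fell and 3 rose after Cr. Ndufv1, which binds NADH and the flavin, had 10.13, 10.41, 10.24, 10.15 and 10.44 in Cr-exposed livers and 10.57, 10.62, 10.70, 10.45 and 10.41 in controls (log2 fold change -0.28, adjusted p = 0.00162). Ndufv3, an accessory subunit at the same tip, gave -0.38 (adjusted p = 0.00382) in its brighter probe set, while a dimmer one, at 7.00 ± 0.21 in Cr-exposed livers and 6.83 ± 0.09 in controls (SD, n = 5 each), gave 0.16 and did not pass (adjusted p = 0.162). Ndufs7 had 10.40, 10.53, 10.43, 10.29 and 10.63 in Cr-exposed livers, against 10.88, 10.75, 10.77, 10.79 and 10.67 in controls (log2 fold change -0.31, adjusted p = 0.00129). Ndufb2, an accessory subunit of the membrane arm, had 10.54, 10.81, 10.62, 10.56 and 10.94 in Cr-exposed livers and 11.10, 10.96, 11.05, 11.05 and 11.00 in controls (log2 fold change -0.34, adjusted p = 5.53e-05). Ndufa6, an accessory subunit of the matrix arm, had 11.28, 11.52, 11.40, 11.27 and 11.80 in Cr-exposed livers and 11.84, 11.88, 11.81, 11.74 and 11.68 in controls (log2 fold change -0.34, adjusted p = 0.000509), with liver 5 inside the control range. In Ndufs7 and Ndufb2 every exposed liver lay under every control.

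The 3 complex I genes that rose after Cr were Ndufab1, Ndufa5 and Ndufa8. Ndufab1, the mitochondrial acyl carrier protein that also serves fatty acid and iron-sulfur cluster synthesis, lay between 11.98 and 12.15 in the 5 Cr-exposed livers, against 11.75, 11.75, 11.75, 11.71 and 11.74 in controls. The groups did not overlap, and the effect was 0.31 (SE 0.06, adjusted p = 5.42e-05). Ndufa5, an accessory subunit of the matrix arm, had 9.84, 9.84, 9.89, 9.78 and 9.73 in Cr-exposed livers, against 9.38 to 9.64 in controls (log2 fold change 0.29, adjusted p = 0.000563). Ndufa8, on the side facing the intermembrane space, rose by 0.27 (adjusted p = 0.00586), and exposed liver 2 lay under the highest control; the call was lost with each array centred on its median (log2 fold change 0.18, adjusted p = 0.0695).

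Complexes III and IV again held few calls. Uqcrq, a small subunit of complex III, had 12.55, 12.62, 12.52, 12.51 and 12.79 in Cr-exposed livers and 12.76, 12.82, 12.82, 12.78 and 12.77 in controls (log2 fold change -0.19, adjusted p = 0.00422), so 4 exposed livers were under all controls and liver 5 was among them. In complex IV, Cox7b fell by 0.20 (adjusted p = 0.00419) and Cox7a2l rose by 18.3% (log2 fold change 0.24, SE 0.10, adjusted p = 0.038), with overlapping groups.

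Complex V had 3 rises and 4 falls of 16 genes after Cr. The inhibitor Atp5if1 had 9.53, 9.38, 9.40, 9.44 and 9.03 in Cr-exposed livers, against 8.69, 8.88, 8.90, 8.90 and 8.73 in controls. It rose by 45.0%, the largest rise of any member after Cr (log2 fold change 0.54, SE 0.08, adjusted p = 9.65e-06), with no overlap. Its 2 other probe sets were too dim to test. Atp5f1d, the delta subunit of the rotating stalk, had 11.20, 11.18, 11.28, 11.33 and 11.22 in Cr-exposed livers, against 11.16, 10.89, 11.04, 10.93 and 10.96 in controls (log2 fold change 0.25, adjusted p = 0.00121). Atp5mc3, 1 of the genes for the proton-carrying ring, rose by 0.17 on the log2 scale (adjusted p = 0.00333), a call lost with arrays centred on their medians (adjusted p = 0.144) or normalized again (0.0796). Atp5po, Atp5mf, Atp5me and Atp5f1e fell by 0.12 to 0.17.

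**Figure D3:**
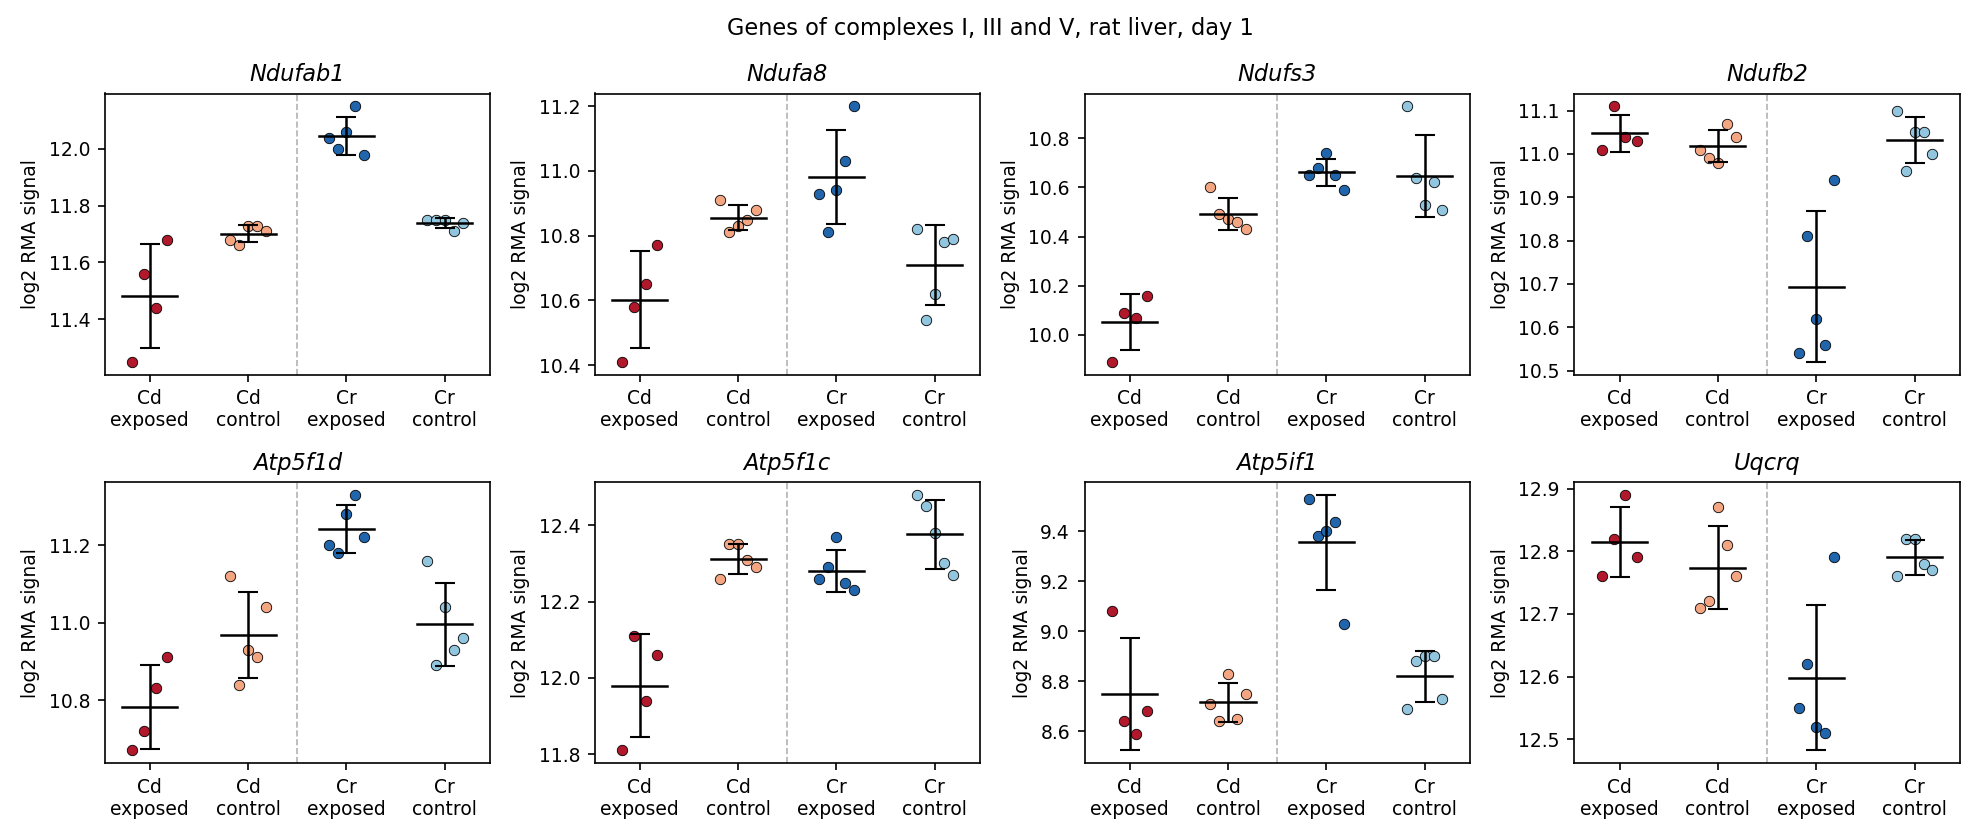
Log2 RMA signal of 8 genes of complexes I, III and V on day 1 in Cd-exposed, Cd control, Cr-exposed and Cr control livers; points are livers, bars are means and error bars are SD. Ndufab1, Ndufa8 and Atp5f1d are low after Cd and high after Cr, Ndufs3 and Atp5f1c are low after Cd, Ndufb2 and Uqcrq are low after Cr with exposed liver 5 nearest to the controls, and Atp5if1 is high after Cr (9.03 to 9.53).

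The effects of Cd and Cr on day 1 were then set against each other as a difference of log2 fold changes, each metal against its own controls, in a fit of all 59 arrays. For 21 of 76 member genes (22 of 79 probe sets) the difference was called, 7 genes higher and 14 lower after Cd than after Cr. Of all 13039 tested probe sets 28.3% differed, 11% higher and 17.3% lower. On days 3 and 7 the difference was called for 0 of 79 member probe sets, where 0.00767% and 0.736% of all tested were called. No level was compared across metals, since the array means of the metals did not overlap (5.887 to 5.921 for Cd and 5.931 to 5.949 for Cr) and the arrays of each metal were taken as normalized apart. Of the 76 genes, 4 were called in opposite directions, lower after Cd and higher after Cr: Ndufab1, Ndufa8, Sdhc and Atp5f1d. No member was called higher after Cd and lower after Cr. Of the 12808 probe sets tested in both metals, 118 had the first pattern and 111 the second. The differences for these genes were -0.52 for Ndufab1 (95% interval -0.70 to -0.35, adjusted p = 2.31e-05), -0.52 for Ndufa8 (-0.75 to -0.30, adjusted p = 0.000442), -0.49 for Sdhc (-0.66 to -0.32, adjusted p = 3.93e-05) and -0.43 for Atp5f1d (-0.60 to -0.26, adjusted p = 0.000196). These 4 genes were picked by their opposite calls in the same arrays. A called difference was therefore nearly fixed beforehand and adds no separate support. All 4 differences were called under each of the 27 alternatives tried. However, Sdhc alone of the 4 kept its Cd call without Cd-exposed liver 1, and Ndufa8 lost its Cr call with arrays centred on their medians. Of the 21 differences, 8 were lost when some single liver was left out (adjusted p = 0.0501 to 0.184): those of Sdha, Sdhaf1, Ndufa5, Ndufa11, Ndufc2, Ndufv2, Cox7b and Atp5f1c. That of Ndufa5 was lost under 16 of the 27 alternatives.

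Of the 27 genes called with 1 metal alone, 14 also had a called difference between the metals, 6 of the 9 called after Cd alone and 8 of the 18 called after Cr alone; for the other 13 the difference did not pass. Ndufs3, with effects of -0.44 after Cd and 0.02 after Cr, differed by -0.46 (95% interval -0.67 to -0.25), and Sdhd by -0.35 (-0.52 to -0.18). Atp5if1, with 0.03 after Cd and 0.54 after Cr, differed by -0.50 (-0.77 to -0.24). Ndufb2, with 0.03 after Cd and -0.34 after Cr, differed by 0.37 (0.22 to 0.52). Sdhb gave -0.20 after Cd and -0.17 after Cr, and the difference of -0.03, with a 95% interval of -0.22 to 0.15, did not pass. Sdhaf1, higher after both, rose more after Cd (difference 0.39, 95% interval 0.14 to 0.64, adjusted p = 0.0135), a call lost without Cd-exposed liver 5 (adjusted p = 0.0646).

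In all, 11 genes were called after both metals, which is 55% of the 20 genes called after Cd and 37.9% of the 29 called after Cr. Over all probe sets tested in both, the shares were near these, at 61.4% of the 3408 called after Cd and 32.5% of the 6434 called after Cr. Besides Sdhaf1 and the 4 opposite genes, 6 members were lower after both: Ndufa6, Ndufc1, Ndufs7, Sdha, Atp5me and Atp5po. Without Cd-exposed liver 1, 5 of the 11 kept both calls: Sdhaf1, Sdhc, Ndufc1, Ndufs7 and Atp5me. Across the 76 genes the log2 fold changes of the metals gave Pearson r = 0.268 and Spearman rho = 0.113, against 0.447 and 0.446 over 12808 probe sets tested in both. These are descriptions across genes, which share the same arrays within a metal and are not independent replicates.

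**Figure D4:**
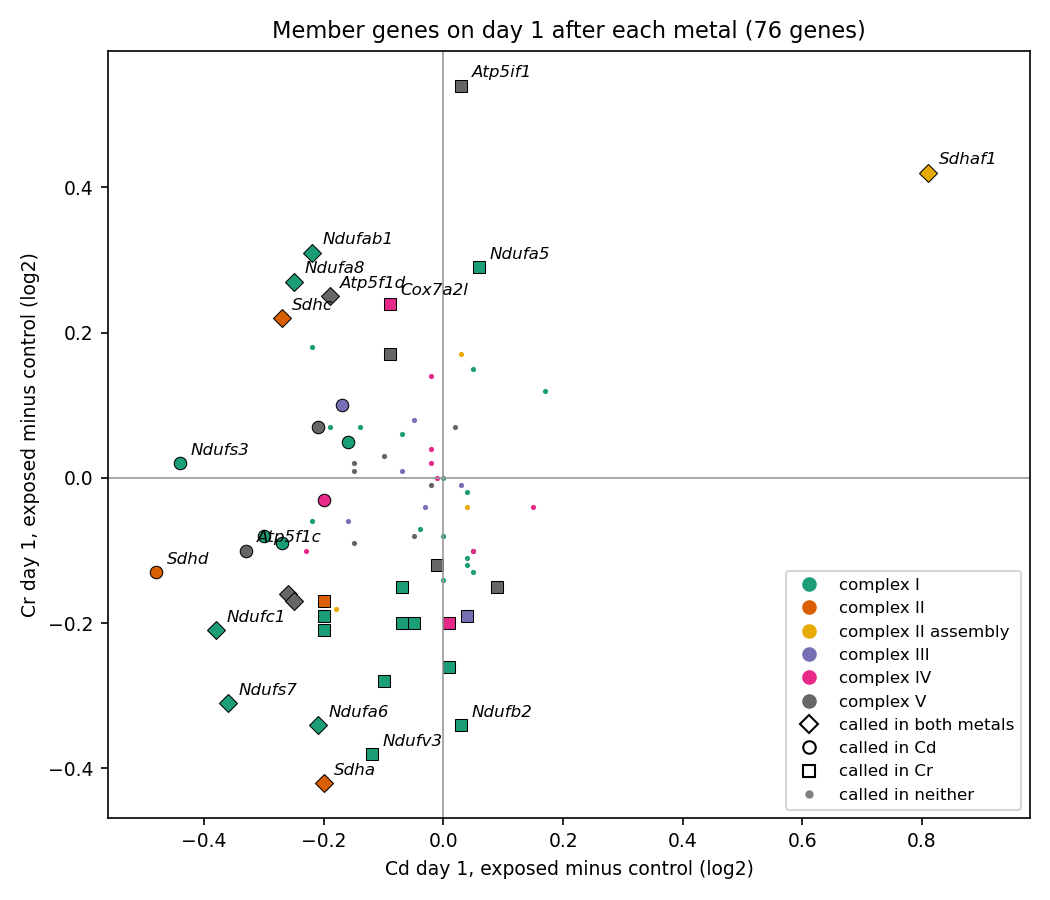
Log2 fold change on day 1 after Cd (horizontal axis) and after Cr (vertical axis) for the 76 tested member genes, coloured by complex; diamonds are called in both metals, circles in Cd, squares in Cr and dots in neither. Sdhaf1 stands alone at the upper right (0.81 and 0.42), Ndufab1, Ndufa8, Sdhc and Atp5f1d sit at the upper left, and Sdha, Ndufs7 and Ndufc1 at the lower left.

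By day 3 no member was called after either metal, and none was on day 7. After Cd, limma called 0 of 80 member probe sets on day 3, when 1.39% of all tested were called, and 0 on day 7, when 0.0231% were. After Cr, 0 of 79 were called on day 3, when 0% of all tested were, and 0 on day 7, when 0.191% were. At an unadjusted p of 0.05 or less, 5 of 76 member genes passed on Cd day 3, 1 on Cd day 7, 2 on Cr day 3 and 7 on Cr day 7, where 11.7%, 8.3%, 8.71% and 11.2% of all tested probe sets did. The member genes' log2 fold changes lay between -0.16 and 0.27 on Cd day 3, -0.25 and 0.32 on Cd day 7, -0.19 and 0.08 on Cr day 3, and -0.11 and 0.24 on Cr day 7. The median 95% interval of a gene, not adjusted for the number of tests, reached 0.12 to either side on these days, about 8.9%. Smaller changes could not be told from 0. Larger ones need not pass after adjustment, as the largest effect, 0.32 on Cd day 7, did not.

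The change from day 1 to day 3 was itself tested as a difference of effects. After Cd it was called for 6 of 80 member probe sets, 5 genes, where 12.9% of all tested were called: Sdhaf1 was at 0.81 on day 1 and 0.00 on day 3, Sdhd at -0.48 and -0.07, Ndufs3 at -0.44 and -0.10, Ndufa8 at -0.25 and 0.08, and Atp5f1c at -0.33 and -0.04. The call for Ndufa8 was lost without Cd-exposed liver 1 of day 1 (adjusted p = 0.12) and without most other livers, and that for Ndufs3 when any 1 of 7 livers was left out, Cd-exposed liver 1 of day 1 among them (adjusted p = 0.0868). The other 3 genes kept theirs whichever liver was left out. After Cr it was called for 13 of 76 genes, where 29% of all tested were called. Among these, Sdha was at -0.42 on day 1 and 0.04 on day 3, Atp5if1 at 0.54 and -0.01, Ndufab1 at 0.31 and -0.07, and Ndufb2 at -0.34 and 0.01. On day 7, Cox7a2l had the largest effect of any member after either metal, 0.32 after Cd (mean 10.61 in exposed and 10.29 in control livers) and 0.24 after Cr (10.64 and 10.41), neither of which passed (adjusted p = 0.408 and 0.334).

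**Figure D5:**
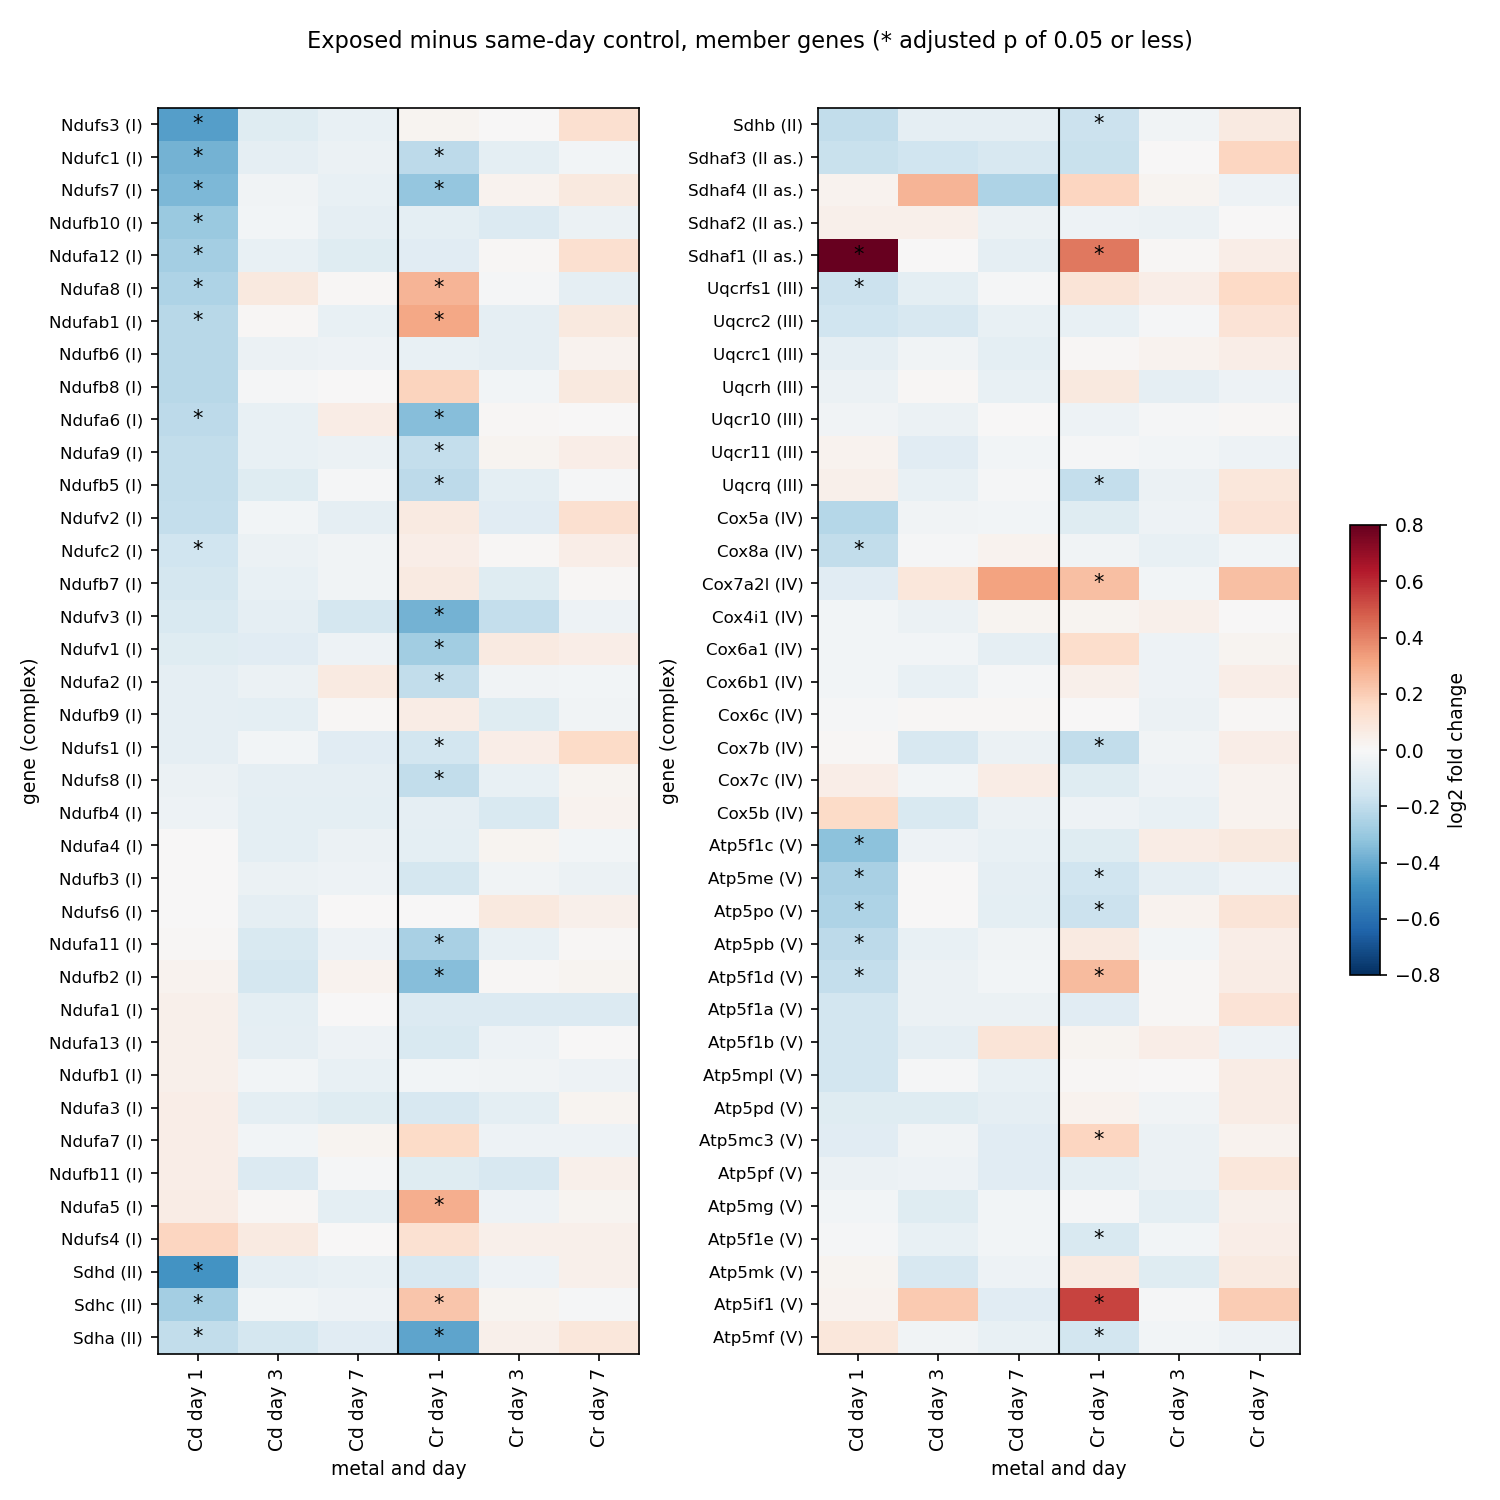
Heat map of the log2 fold change, exposed minus same-day control, of the 76 tested member genes (rows, by complex) after Cd and Cr on days 1, 3 and 7 (columns); red is higher and blue lower in exposed livers, and a star marks an adjusted p of 0.05 or less. Stars stand in the day 1 columns alone, 20 for Cd and 29 for Cr.

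Other genes of the pathway were described on day 1 from lists. Among 10 tested electron carriers, the genes of cytochrome c1, electron transfer flavoprotein and ubiquinone synthesis, 7 fell and none rose after Cd, and 5 fell and 1 rose after Cr. Of all tested probe sets, 12% were lower and 14.5% higher after Cd, and 19.5% lower and 30.5% higher after Cr. Etfb, a subunit of the flavoprotein that brings electrons from fatty acid oxidation to ubiquinone, gave -0.42 after Cd (mean 11.44 in exposed and 11.87 in control livers) and -0.42 after Cr (11.51 and 11.94). Etfdh, which passes those electrons on, gave -0.33 after Cd and -0.50 after Cr. Coq3, an enzyme of ubiquinone synthesis, fell after Cd (-0.33, adjusted p = 0.0182) and rose after Cr (0.43, adjusted p = 6.46e-05).

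Assembly factors and mitochondrial ribosomal proteins had more rises than falls after Cr, as did all tested probe sets in the values as deposited (30.5% higher and 19.5% lower). Of 34 tested assembly factors of the complexes, 15 rose and 5 fell after Cr, while after Cd 2 of 33 rose and 6 fell. Ndufaf4, a complex I assembly factor, averaged 9.64 in Cr-exposed livers and 8.67 in controls (log2 fold change 0.97, adjusted p = 3.51e-06). Cox11, which helps to deliver copper to complex IV, gave 0.77 (adjusted p = 5.32e-05). Of 73 mitochondrial ribosomal protein genes, which serve to make the subunits encoded in mitochondrial DNA, 45 rose and 2 fell after Cr with a median log2 fold change of 0.25, and 5 rose and 4 fell after Cd. With each array centred on its median, 36 of these rose and 3 fell after Cr (median 0.16), and 13 assembly factors rose and 7 fell. Of 17 regulators, 8 rose and 1 fell after Cr, against 3 and 2 with the centring. Pprc1, a coactivator of nuclear respiratory factors, averaged 8.03 in Cr-exposed livers and 6.31 in controls (log2 fold change 1.73, adjusted p = 1.57e-07), and Tfam, which packs and transcribes mitochondrial DNA, rose by 0.38 on the log2 scale. After Cd, Pprc1 rose by 0.68 (adjusted p = 0.0391) and Ppargc1b, a coactivator of mitochondrial genes, fell by 0.67 (adjusted p = 0.00204). Ppargc1a was too dim to test. Of 13 TCA cycle and pyruvate dehydrogenase genes, 4 fell after Cd and 3 after Cr, and 0 rose in the values as deposited, while 2 rose and 4 fell after Cr with the arrays normalized again. The share lower after Cr was near that of all tested probe sets.

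RefSeq gave a start region for 76 of the 84 member genes, and 1 region was kept per gene. The NRF1 letters were found in 25% of them and in 6.21% of the 27457 regions of the same length over all genes. The shares were 25% and 3.32% for the YY1 letters, 30.3% and 9.21% for the ETS letters, and 3.9% and 1.47% for the ERR letters. Among tested genes with the NRF1 letters, 7 of 19 were lower and 0 higher after Cd, and 6 lower and 3 higher after Cr; among the 51 without, 11 were lower and 1 higher after Cd, and 14 lower and 5 higher after Cr. With the YY1 letters, 3 of 18 were lower and 0 higher after Cd, and 8 lower and 0 higher after Cr. Without them, 15 of 52 were lower and 1 higher after Cd, and 12 and 8 after Cr. With the ETS letters, 4 of 23 were lower and 1 higher after Cd, and 7 and 1 after Cr. Without them, 14 of 47 were lower and 0 higher after Cd, and 13 and 7 after Cr. The ERR letters were in 3 tested genes, 2 lower after Cd and 1 higher after Cr. A match shows only that these letters are there.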

How the data were processed

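The authors deposited log2 values of 59 arrays, which they made from the scanned signals by RMA in Partek Genomic Suite. Array signals give no read depth, and the number of livers, each from a separate rat, limits the precision. Here the deposited log2 values were tested in R 4.3.3 with limma 3.58.1 (lmFit, eBayes) across all probe sets, with 6 groups per metal or all 12 for differences between metals, each exposed group against its same-day controls. Array controls were left out, a probe set needed a mean log2 signal of 6 over the arrays fitted, and p-values were adjusted by Benjamini-Hochberg over all tested probe sets, with 0.05 as the threshold. A gene was represented by its brightest probe set. Of all probe sets, 20826 had 1 symbol, 436 several and 9780 none, and 7 with several symbols would otherwise have been members. Genes were named by a rule that took core subunits of each complex, tissue forms and genes called in opposite directions. It also took the 3 largest rises and falls called in each complex where no exposed liver crossed the control mean. Effects of some core subunits, such as Cox5a, Cox5b and Ndufb8, are not given. Other members, such as Ndufa6 and Uqcrq after Cr, and genes of the pathway lists were picked after their values were seen. The members and the gene lists were chosen with earlier results of these data known. The fit was also run on simulated arrays with known changes. Noise was drawn apart for each probe set there, so deviations that a liver shares across genes were not simulated. Alternatives were pooled controls, as in the study's methods, other filters, scalings and variance models, the replicate number as a block, and each liver left out in turn. Start regions are from RefSeq (GRCr8), 1 per gene. Where a gene had several, the first by start coordinate, sorted as text, was kept, whether or not liver uses that start.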

Additional observations from a re-analysis of the deposited data

Results flagged for a closer look

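In groups of 4 or 5 livers, 4 of 118 sets of values held a liver far from the rest of its group, where chance gives about 1 in 20. The Kupffer marker mean was 7.66 in Cd-exposed liver 5 on day 1 and 5.07 to 5.32 in the other exposed livers. Cox8a was at 12.24 in Cd control liver 1 on day 1, with 12.30 to 12.32 in the other controls. Among Cr controls on day 1, Ndufab1 was at 11.71 in liver 4, with 11.74 to 11.75 in the others, and Uqcrfs1 was at 11.79 in liver 2, with 11.96 to 11.98 in the others.

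By limma's test of Cd effect minus Cr effect, 28.3% of all tested probe sets differed on day 1. Among members, 21 of 76 genes differed. The calls of 8 of them, Sdha, Sdhaf1, Ndufa5, Ndufa11, Ndufc2, Ndufv2, Cox7b and Atp5f1c, were lost when some single liver was left out (adjusted p = 0.0501 to 0.184). Among subunits of complex I, the difference was -0.52 for Ndufab1, -0.52 for Ndufa8, -0.46 for Ndufs3, -0.26 for Ndufv2, -0.23 for Ndufa5 and -0.21 for Ndufc2, and 0.37 for Ndufb2 and 0.27 for Ndufa11. Among complex II genes it was -0.49 for Sdhc, -0.35 for Sdhd, 0.22 for Sdha and 0.39 for Sdhaf1. In complexes III and IV it was -0.26 for Uqcrfs1, 0.23 for Uqcrq and 0.21 for Cox7b. In complex V it was -0.50 for Atp5if1, -0.43 for Atp5f1d, -0.28 for Atp5pb, -0.26 for Atp5mc3, -0.24 for Atp5f1c and 0.24 for Atp5mf.

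Day 1 minus day 3, the effect differed for 5 of 76 genes after Cd, where 12.9% of all tested probe sets did. The difference was 0.82 for Sdhaf1, -0.40 for Sdhd, -0.34 for Ndufs3, -0.34 for Ndufa8 and -0.30 for Atp5f1c; the calls of Ndufa8 and Ndufs3 were lost without Cd-exposed liver 1 of day 1 (adjusted p = 0.12 and 0.0868). After Cr, 13 of 76 genes differed, where 29% of all tested probe sets did. The difference was 0.55 for Atp5if1, 0.42 for Sdhaf1, 0.38 for Ndufab1, 0.33 for Ndufa5, 0.24 for Atp5f1d and 0.22 for Atp5mc3. It was -0.46 for Sdha, -0.35 each for Ndufv1, Ndufb2 and Ndufa6, -0.34 for Ndufs7, -0.21 for Ndufa9 and -0.20 for Atp5po, and the calls of Ndufa9, Atp5po and Atp5f1d were lost when some single liver was left out.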

How the results depend on the processing

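Of 88 gene results, 54 kept their calls under every alternative tried, and none changed sign: 10 of 20 calls on Cd day 1 and 20 of 29 on Cr day 1. Leaving out 1 liver gave 10 to 24 members lower and 1 higher on Cd day 1, against 20 and 1 with all livers; the lowest count was without exposed liver 1 and the highest without exposed liver 5. On Cr day 1 it gave 8 to 14 higher and 15 to 24 lower, against 9 and 20. Differences between metals on day 1 ran from 18 to 25, against 22, and those between days 1 and 3 from 4 to 8 after Cd, against 6, and from 10 to 19 after Cr, against 13. Controls pooled over days gave 2 members higher and 30 lower on Cd day 1, and 14 higher and 26 lower on Cr day 1. That was 40% (Cd) and 50.6% (Cr) of member probe sets, beside 33.5% and 59.3% of all tested. Pooled controls also gave 15 (Cd) and 28 (Cr) differences between days. Normalizing again gave 2 higher on Cd day 1, and centring each array on its median gave 36 lower on Cr day 1. Differences between days numbered 3 after Cd with no filter, 10 with a minimum of 8, and 21 after Cr with array weights. The cause of these shifts was not tested. On days 3 and 7 every alternative gave 0 members. With the replicate number as a block, Cd day 1 had 1 higher and 24 lower and Cr day 1 had 10 and 20. Same-numbered exposed and control livers deviated together (r over 0.1) in 11 of 14 pairs for Cd and 8 of 15 for Cr. Their mean r was 0.149 for Cd and 0.106 for Cr, against -0.0369 and -0.0262 for livers with other numbers. An exposed liver correlated best with the control of its own number in 8 of 14 pairs for Cd and 8 of 15 for Cr. The labels do not say what the number stands for, and the main fit did not use it.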
